A study of Mus musculus with 9 samples.

Results

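The effect of deleting Hdac1 and Hdac2 was read in microglia of FAD mice, a mouse model of familial Alzheimer's disease, as the difference between 3 FAD DKO arrays and 3 FAD arrays. These 6 arrays were chosen by their titles out of 9 arrays in the series, and each gene with 1 symbol was represented by its brightest probe set, which gave 22180 genes. Both groups carried the FAD transgenes and floxed alleles of both deacetylase genes (FAD Hdac1/2fl/fl). FAD DKO mice carried Cx3cr1CreERT2 in addition, a Cre recombinase that acts after tamoxifen and is driven by the locus of the fractalkine receptor, a gene of microglia and other mononuclear phagocytes. Tamoxifen (8 mg) was given to all mice, controls included, at 6 weeks of age, and microglia were sorted by FACS from the brains of female C57Bl/6 mice at 24 to 28 weeks. The remaining 3 arrays were of wild type mice, whose genotype label names no floxed allele, and served here for the estimate of the spread and as a level to set beside the others.

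FAD DKO mice differ from FAD mice in the Cre insertion as well as in the deletion, so effects of the insertion and of the deletion cannot be told apart in this comparison. Whether the arrays of a group came from different mice is not in the labels, and p-values therefore describe only how far these samples differ among themselves, which may be technical. In sorted bulk samples, a change in the share of cells with a transcript and a change of its amount per cell cannot be told apart either.

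HDAC1 and HDAC2 are closely related histone deacetylases that form the catalytic core of the Sin3, NuRD, CoREST and MiDAC complexes, which remove acetyl groups from histone tails. They are known both as corepressors of silent genes and as enzymes found at active genes, where histone acetylation turns over, and either can often stand in for the other. In the brain of FAD mice, microglia gather at amyloid plaques, take up amyloid and pass from a homeostatic state, marked by genes such as P2ry12 and Tmem119, to a plaque-associated state marked by genes such as Apoe and Cst7.

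Array medians lay between 5.35 and 5.40, and each array's mean correlation with the others of its group lay between 0.989 and 0.992. The number of arrays limits the precision of every value. All arrays were labelled C57Bl/6. H2-Ea, a class II gene that is silent in that strain, and Ifi202b, an interferon-inducible gene with low expression there, were picked after their values were seen because they divided arrays within a group. H2-Ea stood at 8.16, 4.03 and 6.52 in FAD and at 6.21, 4.21 and 3.72 in FAD DKO, with 4.18, 4.06 and 3.94 in wild type. Ifi202b stood at 5.71, 3.01 and 2.98 in FAD and at 5.76, 5.86 and 4.89 in FAD DKO, with 2.97, 3.24 and 3.03 in wild type. The part of strain background in the results was not tested.

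The targeted genes were examined first. Hdac2 stood at log2 signals of 8.56, 8.52 and 8.36 on the FAD arrays and at 7.89, 7.61 and 7.90 on the FAD DKO arrays, with wild type at 8.28, 8.39 and 8.22. Hdac1 stood at 8.03, 8.14 and 8.19 in FAD and at 7.63, 7.41 and 7.64 in FAD DKO, with wild type at 8.07, 8.65 and 8.60. Every FAD DKO array was thus below every FAD and every wild type array for both genes. The difference, FAD DKO minus FAD, was -0.68 ± 0.099 (SE) for Hdac2 and -0.56 ± 0.147 for Hdac1 on the log2 scale, and neither passed the threshold over all genes (limma, adjusted p = 0.159 and 0.376). For Hdac2 the adjusted p was 0.0458 when dim genes were left out, and 0.0337 with a variance model that was trended and robust. The labels do not say which exons are floxed and the positions of the probes within these genes were not used here, so the levels do not measure the share of cells that recombined.

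Cx3cr1, the fractalkine receptor gene into which Cre was inserted, stood at 12.14, 12.13 and 12.11 in FAD and at 11.86, 11.95 and 11.82 in FAD DKO. The groups did not overlap, and the difference of -0.25 ± 0.0668 did not pass over all genes (limma, adjusted p = 0.383).

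**Figure D1:**
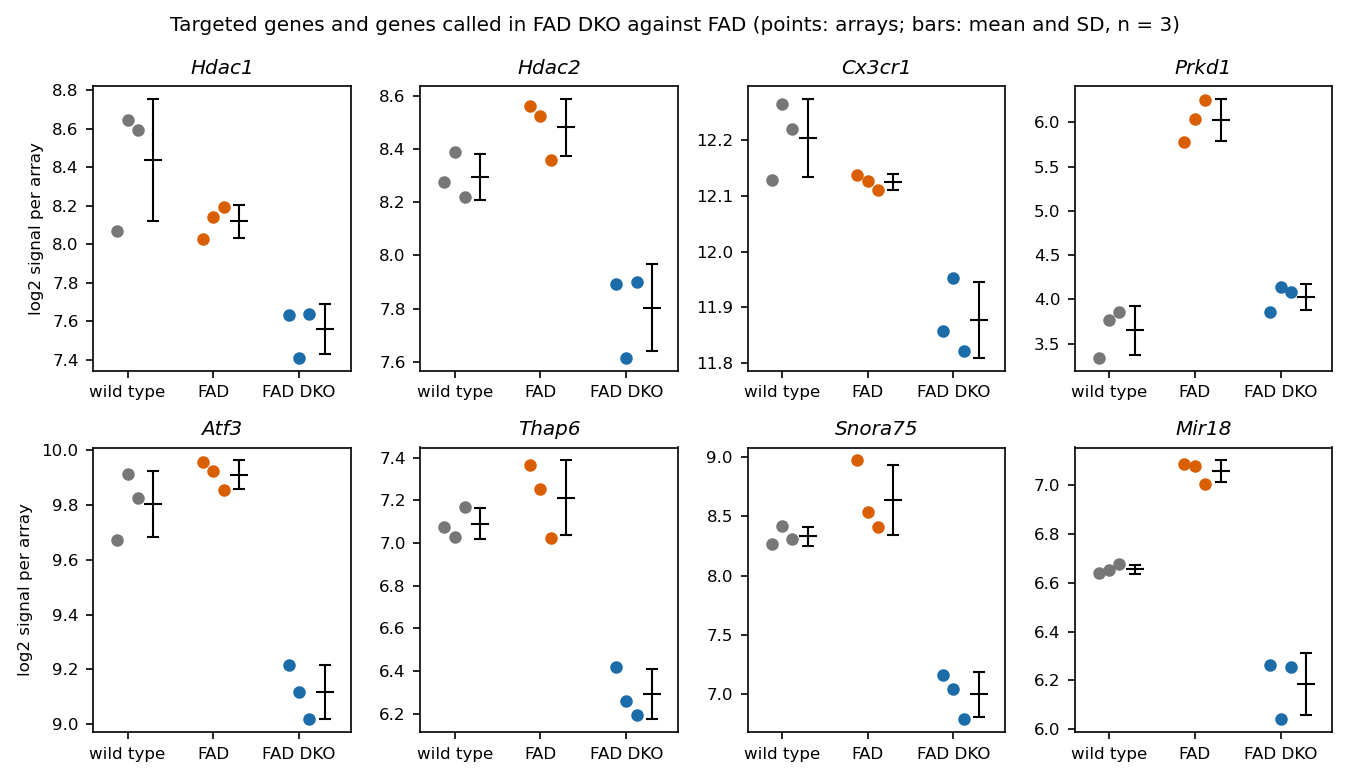
Log2 signal on each of the 9 arrays for the 3 targeted loci (Hdac1, Hdac2, Cx3cr1) and the 5 genes that passed the test, by group; points are arrays and bars give the mean and SD of 3 arrays, on an axis that differs between panels and does not start at 0. In each panel the 3 FAD DKO points lie below the 3 FAD points, and for Prkd1 they lie close to the wild type points.

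Over the 22180 genes, 5 passed an adjusted p under 0.05, all of them lower in FAD DKO (0.0225% of the genes tested). At an unadjusted p under 0.05 there were 1797 genes (8.1%), 978 lower (4.41%) and 819 higher (3.69%). Every FAD DKO array was below every FAD array for 1442 genes (6.5%) and above every FAD array for 1193 (5.38%), and the difference was below 0 for 10363 genes (46.7%). Without the second FAD array or the third FAD DKO array no gene passed (limma, with 1683 and 1799 genes at an unadjusted p under 0.05), and without other arrays 1 to 5 did. A fit on the 6 arrays alone, with fewer arrays for the spread, passed none and had 1584 genes at an unadjusted p under 0.05. At least 1.5-fold lower were 100 genes and at least 1.5-fold higher 58, and 8 and 5 genes were past 2-fold. The split differed with the level. Among 11532 genes at or above the median of all probe sets (a log2 signal of 5.35), 10.5% were lower and 5.52% higher without overlap, and among the 10648 dimmer genes 2.12% were lower and 5.22% higher.

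Among the 18 histone deacetylases and sirtuins measured, 10 were below 0 and 8 above, with a median of -0.02 against 0.01 over all genes. Without overlap 5 were lower, Hdac1 and Hdac2 among them, and 1 was higher (27.8% and 5.56%, against 6.5% and 5.38% of all genes). Among genes at or above the median signal, where all 18 lie, 10.5% were lower and 5.52% higher. None but Hdac1 and Hdac2 had an unadjusted p under 0.05. Hdac3 (-0.08) and Hdac8 (0.07), the other class I enzymes, which were picked after their values were seen, overlapped between the groups. Hdac4 (-0.12), a class IIa enzyme, was lower without overlap at an adjusted p of 0.632 (limma), and the deacylase Sirt7 (0.19) overlapped.

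The partners of HDAC1 and HDAC2 in their complexes showed values near those of all genes. Of 28 measured corepressor subunits, 15 were below 0 and 13 above, and the median was -0.01. Without overlap 3 were lower and 1 was higher (10.7% and 3.57%, against 6.5% and 5.38% of all genes). Among genes at or above the median signal, where 27 of the 28 lie, 10.5% were lower and 5.52% higher. Sap30, a Sin3 complex subunit, was the member with the smallest p, at 8.26, 7.87 and 7.80 in FAD and at 7.72, 7.32 and 7.57 in FAD DKO (-0.44, limma, adjusted p = 0.504). Mta1 (0.15) and Mta3 (-0.20), paralogous NuRD subunits, and Brms1 (0.15), a Sin3 subunit, did not pass either. Of 14 histone acetyltransferases, the enzymes that oppose deacetylases, 11 were above 0 and 3 below, with a median of 0.02 and a highest value of 0.19 for Kat8. Crebbp (0.11), the CREB-binding acetyltransferase, was higher on every FAD DKO array than on every FAD array. Bromodomain and other acetyl-lysine reader genes split 9 below to 10 above among 19, with Yeats2 at -0.19 and Mllt3 at 0.28.

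Prkd1, which encodes protein kinase D1, a kinase activated by diacylglycerol and protein kinase C, had the largest fall. It stood at 5.78, 6.04 and 6.26 in FAD and at 3.86, 4.14 and 4.08 in FAD DKO, with wild type at 3.34, 3.76 and 3.86. The FAD DKO arrays lay below the FAD arrays and overlapped slightly with wild type. Prkd1 fell by 2.00 on the log2 scale (SE 0.162, 3.99-fold lower, limma, adjusted p = 0.0121), and by 1.88 to 2.12 with any array left out. Against wild type the differences were 2.37 for FAD (limma, adjusted p = 0.00105) and 0.37 for FAD DKO (adjusted p = 0.602). The call was lost without the second FAD array (adjusted p = 0.0889), without the second or the third FAD DKO array (0.0548 and 0.0688) and on the 6 arrays alone (0.0949). The wild type and FAD DKO levels are dim, under the median signal of 5.35.

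The other protein kinase D and C genes did not share that size of difference. Of 13 measured genes of this group, 8 were below 0 and 5 above, and 1 passed. The paralogs Prkd2 (0.06) and Prkd3 (-0.03), picked after their values were seen, overlapped between the groups. Prkch, a diacylglycerol-responsive protein kinase C, stood at 7.60, 7.86 and 7.79 in FAD and at 6.95, 7.22 and 7.15 in FAD DKO, without overlap (-0.65, limma, adjusted p = 0.212). Prkcd was 0.17 higher without overlap, and Prkcz (0.16) overlapped.

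Atf3, a stress-induced transcription factor of the CREB and ATF family that often represses inflammatory genes, fell by 0.79 (SE 0.0838, 1.73-fold lower, limma, adjusted p = 0.0314). Its levels were 9.96, 9.92 and 9.85 in FAD, 9.67, 9.91 and 9.82 in wild type, and 9.21, 9.12 and 9.02 in FAD DKO. FAD DKO thus lay under both other groups, with a difference from wild type of -0.69 (limma, adjusted p = 0.0261). Atf3 kept its call without the first wild type array and lost it without any other array (adjusted p from 0.0504 to 0.216), after quantile normalization (0.0501) and on the 6 arrays alone (0.192). Thap6, a THAP domain gene that the RefSeq table classes as a transcribed pseudogene in the mouse, fell by 0.92 (SE 0.102, 1.90-fold lower, limma, adjusted p = 0.0362). It stood at 7.36, 7.25 and 7.02 in FAD and at 6.42, 6.26 and 6.19 in FAD DKO, with wild type at 7.07, 7.03 and 7.17. Thap6 kept its call without the third FAD array and lost it without any other array (limma, adjusted p from 0.0504 to 0.216), after quantile normalization (0.0659) and on the 6 arrays alone (0.310). The other 7 measured THAP genes lay between -0.10 (Thap2) and 0.11 (Thap1), and all of them overlapped between the groups.

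Snora75, a box H/ACA small nucleolar RNA (snoRNA) gene, fell by 1.64 (SE 0.149, 3.12-fold lower, limma, adjusted p = 0.0121). The FAD arrays were at 8.97, 8.54 and 8.41, wild type at 8.27, 8.42 and 8.31, and FAD DKO at 7.16, 7.04 and 6.79. All FAD DKO arrays were below both other groups by more than 1 log2 unit. Mir18, the gene of miR-18a, fell by 0.87 (SE 0.0756, 1.83-fold lower, limma, adjusted p = 0.0121). It was at 7.09, 7.08 and 7.0 in FAD, 6.64, 6.65 and 6.68 in wild type, and 6.26, 6.04 and 6.25 in FAD DKO. Both calls were lost on the 6 arrays alone (limma, adjusted p = 0.215 for Snora75 and 0.192 for Mir18), without the third wild type array (0.0614 and 0.0538), without the second FAD array (0.0889 each) and without the third FAD DKO array (0.0802 and 0.0688). Snora75 also lost it without the second FAD DKO array (0.111), and Mir18 without the first FAD array (0.0829).

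**Figure D2:**
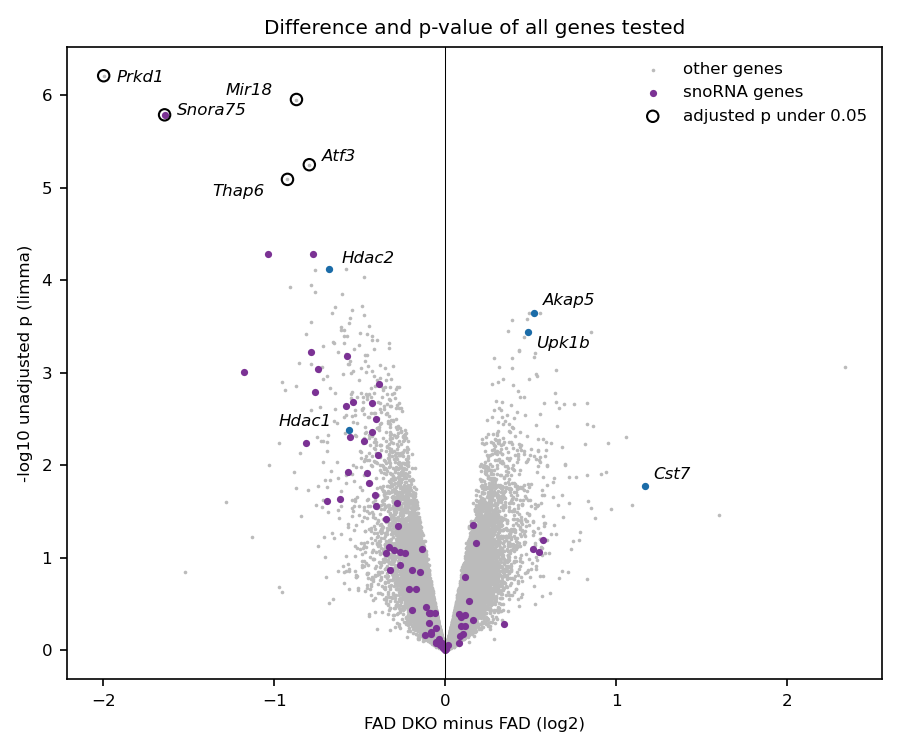
Difference FAD DKO minus FAD on the log2 scale (x axis) against the -log10 unadjusted limma p (y axis) for 22180 genes, with snoRNA genes in purple and rings around the 5 genes with an adjusted p under 0.05. The 5 ringed genes are all on the lower side, most snoRNA genes lie left of 0, and Cst7 (1.17) is the gene farthest to the right among those at or above the median signal; some dimmer genes lie farther right.

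Mir18 lies in the Mir17 to Mir92 cluster, a primary transcript that yields several microRNAs, and related clusters hold paralogs. The mature sequences are shown by family, with the seed (bases 2 to 8, the part that pairs with target messages) in capitals, since Mir18 and Mir17, the 2 microRNA genes of the group that were lower without overlap, carry different seeds. They are from RefSeq (GRCm38.p6). The first 4 share a seed, and the first 2 of these are encoded beside Mir18 on chromosome 14.
mmu-miR-17-5p: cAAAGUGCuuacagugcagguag
mmu-miR-20a-5p: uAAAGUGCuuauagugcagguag
mmu-miR-20b-5p: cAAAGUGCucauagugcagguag
mmu-miR-106b-5p: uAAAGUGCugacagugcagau
mmu-miR-18a-5p: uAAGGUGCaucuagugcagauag
mmu-miR-18b-5p: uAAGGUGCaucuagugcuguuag
mmu-miR-19a-3p: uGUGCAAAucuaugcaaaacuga
mmu-miR-19b-3p: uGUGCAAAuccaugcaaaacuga
mmu-miR-92a-3p: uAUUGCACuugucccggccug
mmu-miR-363-3p: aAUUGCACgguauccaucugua

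The mature miR-18a-5p lies at chr14:115043867-115043889 and miR-17-5p at chr14:115043684-115043706, both on the plus strand. Mir17 stood at 7.16, 6.78 and 6.92 in FAD and at 6.49, 6.09 and 5.92 in FAD DKO, without overlap (-0.79, limma, adjusted p = 0.241). Mir20a stood at 6.05, 5.96 and 6.21 in FAD and at 5.97, 5.30 and 4.88 in FAD DKO (-0.69, adjusted p = 0.504). On the first FAD DKO array it lay within the FAD range. Mir19a, dim on all arrays, had a difference of -0.39 with overlap. All 4 measured genes of the chromosome 14 cluster were thus below 0, and 2 of them did not overlap. Of all genes 6.5% were lower without overlap, and 10.5% of those at or above the median signal. The 4 genes belong to one primary transcript and the cluster was looked at because Mir18 passed, so they are not independent.

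The paralogs outside chromosome 14 were all dim, with means below the median of all probe sets. Mir18b, of the miR-18 seed, was at -0.15, and Mir20b and Mir106b, of the miR-17 seed, were at 0.09 each. Mir19b-2 was at 0.10 and Mir363 at -0.04. Mir92-2 was higher without overlap, at 3.0, 3.11 and 3.05 in FAD and at 3.32, 3.35 and 3.46 in FAD DKO (0.32, limma, adjusted p = 0.403). Mcm7, the replication helicase gene whose intron holds Mir106b, was at 6.92, 6.81 and 6.68 in FAD and at 6.22, 6.52 and 6.52 in FAD DKO (-0.38, adjusted p = 0.409). Whether the probe sets report the primary transcript, the hairpin or the mature RNA was not determined. Over all 478 microRNA genes the median was 0.03, with 2.09% lower and 5.23% higher without overlap.

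snoRNAs guide the chemical modification of ribosomal and spliceosomal RNA, and most are cut from introns of host genes, many of which encode parts of the translation machinery. Of 80 measured snoRNA genes, 61 were below 0 (76.2%), 25 were lower without overlap (31.2%), 1 was higher without overlap, and 1, Snora75, passed. The median was -0.14, against 0.01 for 18964 protein-coding genes, of which 6.91% were lower without overlap. Over all genes 46.7% were below 0, and 6.5% were lower and 5.38% higher without overlap. Among the 55 snoRNA genes at or above the median signal, 46 were below 0 (83.6%) and 22 were lower without overlap (40%). Of all genes at or above that signal, 54% were below 0 and 10.5% were lower without overlap. The median over the class was between -0.21 and -0.12 with any array left out.

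Snord13, a box C/D snoRNA that acts on 18S ribosomal RNA, stood at 8.40, 8.06 and 8.17 in FAD and at 7.49, 7.0 and 7.04 in FAD DKO (-1.03, limma, adjusted p = 0.149). Snora28 stood at 9.11, 9.12 and 8.87 in FAD and at 8.47, 8.17 and 8.14 in FAD DKO (-0.77, adjusted p = 0.149). Snord118, also known as U8, a snoRNA needed for processing of the large ribosomal RNAs, was at 10.63, 10.22 and 10.39 in FAD and at 9.83, 9.39 and 9.67 in FAD DKO (-0.78, adjusted p = 0.225). None of the 3 overlapped between the groups. Snord43 was at -0.57 without overlap.

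A single host gene was found for 65 snoRNA genes, which gave 48 hosts. Of these hosts, 32 were below 0, 17 were lower and 3 were higher without overlap (35.4% and 6.25%), and their median was -0.10. Of all genes at or above the median signal, where 44 of the 48 hosts lie, 10.5% were lower and 5.52% higher. Ncl, the host of Snora75, encodes nucleolin, a nucleolar protein of ribosome assembly, and stood at 9.37, 8.92 and 9.06 in FAD and at 8.58, 8.61 and 8.72 in FAD DKO (-0.48, limma, adjusted p = 0.287). Its difference was smaller than that of Snora75 (-1.64), and both were without overlap. Rpl3, a ribosomal protein gene and host of Snord43, was at -0.51, and Snhg1, a noncoding host gene, was at -0.55, both without overlap. The pairs are not independent, since several snoRNAs share a host, and probes of a snoRNA and of its unspliced host could not be told apart here.

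Further hosts and their snoRNAs were picked after their values were seen. Eif5, a translation initiation factor gene and host of Snora28, was at -0.46, and Gnl3, a nucleolar GTPase gene and host of Snord19 (-1.18), was at -0.57. Nop58, a core protein of box C/D snoRNA particles and host of Snord70 (-0.81), was at -0.53. Snord19 and Snord70 are dim, with means of 4.63 and 3.49 over the 9 arrays, under the median signal of 5.35. Snord22, in Snhg1, was at -0.75. Other snoRNAs of the same hosts differed from these. Snord69, also in Gnl3 and also dim (mean 4.81), was at -0.05. Snord11, also in Nop58, was at 0.12, and both overlapped between the groups. None of the other 6 genes overlapped between the groups, and none passed (limma, adjusted p between 0.212 and 0.383). Of 6 measured genes that the RefSeq table classes as small nuclear RNA, all 6 were below 0, from -0.59 (Rnu3a) to -0.03. Rnu3a, also picked after its value was seen, is the U3 RNA of ribosomal RNA processing, so this class is not limited to spliceosomal RNA. Of these 6, 3 were lower without overlap (50%, against 6.5% of all genes).

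**Figure D3:**
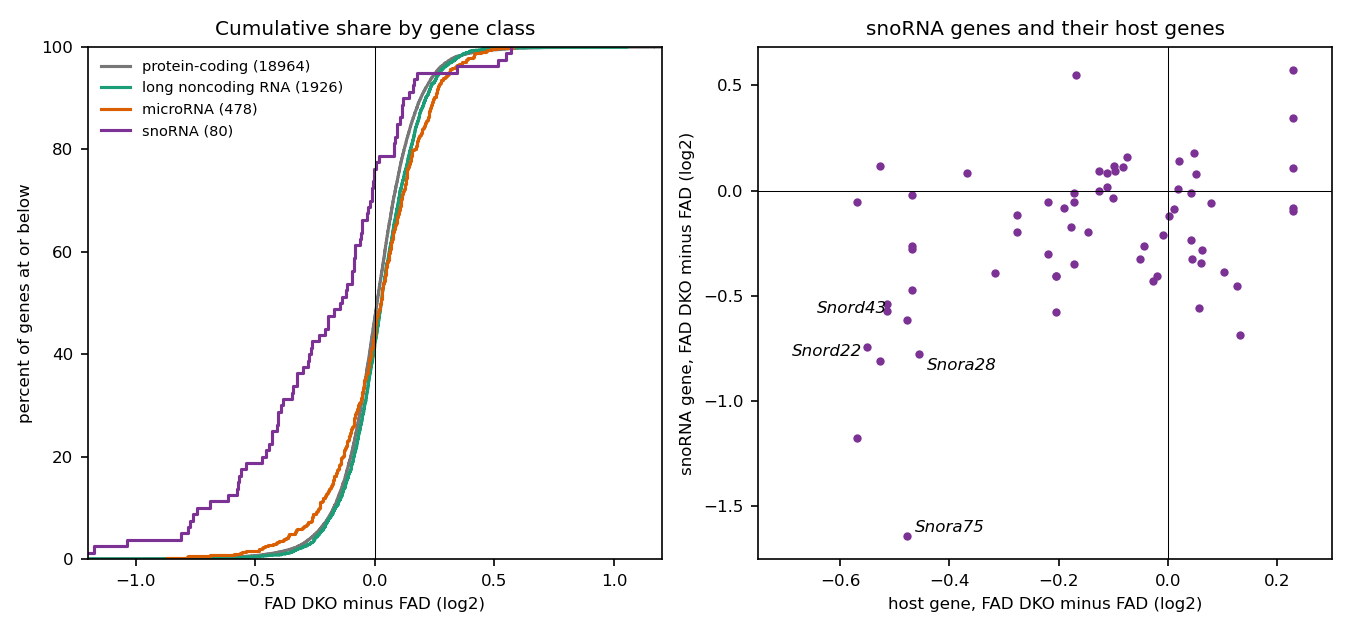
Left, cumulative percent of genes against the difference FAD DKO minus FAD (log2) for protein-coding, long noncoding, microRNA and snoRNA genes, with the number of genes in brackets; differences past 1.2 in either direction are not drawn. Right, the difference of each of 65 snoRNA genes (y axis) against that of its host gene (x axis). On the left, the snoRNA curve lies left of the other 3 over most of its range but not at its upper end, which reaches 0.57. On the right, Snora75 lies lowest, at -1.64 with its host Ncl at -0.48.

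A few nucleolar protein genes were named for their small p (Ppan, Ccdc86) or from the host list (Nop56), and were not tested as a group. Ppan, a nucleolar protein gene needed for the large ribosomal subunit, stood at 7.61, 7.50 and 7.51 in FAD and at 7.03, 6.96 and 7.14 in FAD DKO, with wild type at 7.18 on all 3 arrays (-0.50, limma, adjusted p = 0.149). Nop56, a core protein of box C/D particles, was at 8.64, 8.58 and 8.67 in FAD and at 8.26, 8.39 and 8.30 in FAD DKO (-0.32). Ccdc86, a nucleolar protein gene, was at 7.12, 6.94 and 6.71 in FAD and at 6.10, 6.24 and 6.07 in FAD DKO (-0.78, adjusted p = 0.190). None of the 3 overlapped. On the list of 21 snoRNA hosts and nuclear noncoding RNAs, 16 were below 0 and 7 were lower without overlap (33.3%, against 6.5% of all genes). Among genes at or above the median signal, where 20 of the 21 lie, 10.5% were lower. One of the 7 was Neat1, the scaffold RNA of paraspeckles (-0.57, limma, adjusted p = 0.212).

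Genes of the ribosomal proteins themselves did not lie on that side as a group. Of 28 measured, 18 were above 0 and 10 below, with a median of 0.05. Rpl3 (-0.51) and Rpl5 (-0.42) were lower without overlap (7.14%, against 6.5% of all genes). Rpl35 (0.20), Rplp1 (0.15) and Rpl27 (0.08), the last 2 picked after their values were seen, were higher without overlap (10.7%, against 5.38%).

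Immediate early genes are switched on within minutes of a stimulus, encode transcription factors such as AP-1 and EGR proteins and their feedback inhibitors, and are also known to respond when tissue is taken apart. Of 30 measured members, 28 were below 0 and 15 were lower without overlap (50%, against 6.5% of all genes). Among genes at or above the median signal, where 28 of the 30 lie, 10.5% were lower. Fosl2 was higher without overlap, and Atf3 alone passed. The median was -0.23, and it stayed between -0.26 and -0.20 with any array left out. The mean level over the list was 8.47 to 8.55 on the FAD arrays, 8.39 to 8.55 on the wild type arrays and 8.14 to 8.29 on the FAD DKO arrays.

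Egr2, an EGR transcription factor that acts in macrophage activation, stood at 7.84, 7.95 and 7.64 in FAD and at 6.99, 7.35 and 7.25 in FAD DKO (-0.61, limma, adjusted p = 0.212). Wild type was at 6.95, 6.96 and 7.01, so that the first FAD DKO array lay within the wild type range and the other two between wild type and FAD. Egr1, its paralog, stood at 10.75, 10.55 and 10.83 in FAD and at 10.33, 10.29 and 10.25 in FAD DKO (-0.42, adjusted p = 0.224), and wild type was level with FAD at 10.75, 10.72 and 10.71. Rgs1, which dampens signals from chemokine receptors, was at 9.24, 9.06 and 9.07 in FAD and at 8.50, 8.30 and 8.61 in FAD DKO (-0.65, adjusted p = 0.218). Jun, the AP-1 subunit, was at 10.91, 10.85 and 10.99 in FAD and at 10.71, 10.63 and 10.51 in FAD DKO (-0.30, adjusted p = 0.382). None of these 4 genes overlapped between the groups.

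Others of the list are given as picked after their values were seen. The AP-1 subunits Fosb (-1.03), Fos (-0.52) and Junb (-0.31), the phosphatase gene Dusp1 (-0.53), which switches off MAP kinases, and the zinc finger factor Klf4 (-0.59) were all lower without overlap. Fosb varied most among the FAD DKO arrays, at 7.87, 8.29 and 7.35 against 8.85, 8.95 and 8.80 in FAD, and the first wild type array was at 7.70. Nr4a1 (-0.07) and Zfp36 (-0.04) overlapped. Heat shock and chaperone genes, another group of stress genes, were not on that side: 9 of 15 were above 0 and the median was 0.06, which fell between -0.13 and 0.14 with any array left out. Chordc1 (0.32), a co-chaperone of HSP90, was higher without overlap, and Hspa8 (0.13) and Hspb1 (-0.25) overlapped.

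Within the CREB and ATF family, 8 of 19 genes were below 0. Creb5 stood at 6.94, 7.40 and 7.32 in FAD and at 6.71, 6.50 and 6.49 in FAD DKO (-0.66, limma, adjusted p = 0.218). Atf4, the effector of the integrated stress response, stood at 10.76, 10.69 and 10.69 in FAD and at 10.45, 10.47 and 10.46 in FAD DKO (-0.25, adjusted p = 0.309). Ddit3, a target of ATF4 also known as CHOP, was at -0.36. All 3 were lower without overlap. With Atf3 this made 4 (21.1%, against 6.5% of all genes), while Crtc3 (0.22), a CREB coactivator gene, and Creb3 (0.10), both picked after their values were seen, were higher without overlap (10.5%, against 5.38%). All 19 lie at or above the median signal, where 10.5% of genes were lower and 5.52% higher. The median difference of the family was 0.03.

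NF-kB is a family of transcription factors that drives inflammatory genes, including genes for its own inhibitors. Of 15 measured subunits and inhibitors, 11 were below 0 and 4 were lower without overlap, with none higher, and the median was -0.10. The 4 are 26.7% of the list, against 6.5% of all genes and 10.5% of genes at or above the median signal, where all 15 lie. Nfkbia, the inhibitor IkB alpha, stood at 9.41, 9.35 and 9.44 in FAD, at 9.35, 9.51 and 9.68 in wild type and at 8.96, 8.99 and 8.84 in FAD DKO (-0.47, limma, adjusted p = 0.228). Nfkbiz, an inducible nuclear cofactor, was at 8.76, 8.62 and 8.37 in FAD and at 8.21, 7.92 and 8.00 in FAD DKO (-0.54, adjusted p = 0.247). The subunit gene Nfkb2 (-0.23) and the ubiquitin-editing inhibitor Tnfaip3 (-0.22) were lower without overlap as well. For each of the 4, the FAD DKO arrays were below the wild type arrays too.

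Promoters of these groups were searched on both strands for 5 motifs in the 250 bases before each start: the cyclic AMP response element (CRE, TGACGTCA), the AP-1 site (TGACTCA or TGAGTCA), the CArG box of serum response factor, the NF-kB site, and the Sp1 GC box (GGGCGG). A CRE was found in 3 of 26 immediate early genes with a promoter (11.5%, against 1.77% of 27025 genes), namely Btg2, Maff and Dusp1, and a CArG box in 3, namely Egr2, Dusp5 and Zfp36 (11.5% against 1.62%). Of the same 26, none held an AP-1 site (5.16% of all genes), 5 held an NF-kB site (19.2%) and 23 a GC box (88.5%, against 35.4%). An NF-kB site was found in 8 of 12 genes of the NF-kB list (66.7%, against 4.46%) and in 6 of 19 chemokine and cytokine genes (31.6%). An AP-1 site was found in 3 and a CRE in 1 of the 12, and an AP-1 site in 4 and a CRE in 0 of the 19. No CArG box was found in either group, and GC boxes were found in 11 of the 12 and 6 of the 19. A match is a description of letters only. Promoters of 4 genes are printed for the 150 bases before the start, 5′ to 3′ on the gene's strand, from RefSeq (GRCm38.p6): Atf3 as the immediate early gene that passed, Dusp1 for its CRE, and Nfkbia and Tnfaip3 for their NF-kB sites. Capitals mark a CRE, an AP-1 site, a CArG box or an NF-kB site. GC boxes are not marked.
Atf3: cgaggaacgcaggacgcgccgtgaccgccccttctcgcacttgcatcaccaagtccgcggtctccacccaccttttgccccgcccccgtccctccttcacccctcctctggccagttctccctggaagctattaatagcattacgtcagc
Dusp1: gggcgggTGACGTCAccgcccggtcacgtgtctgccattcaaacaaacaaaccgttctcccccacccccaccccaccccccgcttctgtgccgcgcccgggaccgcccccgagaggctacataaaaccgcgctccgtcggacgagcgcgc
Nfkbia: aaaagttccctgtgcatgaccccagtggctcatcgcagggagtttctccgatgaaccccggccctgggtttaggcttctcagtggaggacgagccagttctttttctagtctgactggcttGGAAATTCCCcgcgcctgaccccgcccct
Tnfaip3: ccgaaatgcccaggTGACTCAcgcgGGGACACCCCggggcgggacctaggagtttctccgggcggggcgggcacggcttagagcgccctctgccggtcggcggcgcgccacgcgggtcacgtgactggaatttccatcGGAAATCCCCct

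The windows lie at chr1:191183334-191183483 for Atf3, chr17:26508473-26508622 for Dusp1, chr12:55492648-55492797 for Nfkbia and chr10:19015411-19015560 for Tnfaip3, all on the minus strand. The CRE of Dusp1 begins 143 bases before the start, and the NF-kB site of Nfkbia 29 bases before it. The window of Atf3 holds none of the 4 marked motifs. The 4 genes were picked for printing. All were lower in FAD DKO without overlap, as were 6.5% of all genes, and Atf3 passed. Of the other genes named above for a CRE or a CArG box, Btg2 and Egr2 were lower without overlap. Maff, Dusp5 and Zfp36, named there too, overlapped between the groups. Another start of Tnfaip3, not printed, has none of the 4 marked motifs in its window.

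Chemokines and cytokines, the secreted signals of activated microglia, were on the same side as NF-kB genes. Of 26 measured, 18 were below 0, 7 were lower and 1 was higher without overlap (26.9% and 3.85%, against 6.5% and 5.38% of all genes), and the median was -0.15. Among genes at or above the median signal, where 20 of the 26 lie, 10.5% were lower and 5.52% higher. Ccl3, a chemokine that microglia at plaques make, stood at 11.76, 11.80 and 11.68 in FAD and at 11.20, 11.20 and 11.09 in FAD DKO (-0.58, limma, adjusted p = 0.159). Ccl4, a related chemokine encoded beside it in the genome, stood at 11.12, 11.02 and 10.89 in FAD and at 10.28, 10.28 and 10.33 in FAD DKO (-0.72, adjusted p = 0.259). Wild type was at 11.17, 11.19 and 10.94 for Ccl3 and at 10.32, 10.36 and 9.73 for Ccl4. Neither gene overlapped between FAD and FAD DKO, and both overlapped between FAD DKO and wild type, with differences from wild type of 0.07 and 0.16.

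Ccl7, a ligand of CCR2, was at 7.74, 7.56 and 7.51 in FAD and at 6.90, 7.17 and 7.14 in FAD DKO (-0.53, limma, adjusted p = 0.224), below wild type at 7.57, 7.35 and 7.50. Socs3, the feedback inhibitor of cytokine receptors, was at 8.65, 8.69 and 8.60 in FAD and at 8.32, 7.74 and 7.82 in FAD DKO (-0.69, adjusted p = 0.252). Neither overlapped with FAD or with wild type. The cytokine genes Tnf (-0.49) and Il1b (0.16), picked after their values were seen, overlapped between the groups, and Ccl2 (-0.48), picked likewise, did not.

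Further genes were among the 12 with the smallest p on the lower side. Cln8, a membrane protein gene of lysosomal enzyme transport that is mutated in a childhood lipofuscinosis, stood at 8.30, 8.12 and 8.20 in FAD and at 7.53, 7.35 and 7.46 in FAD DKO (-0.76, limma, adjusted p = 0.159). Rnf19b, a ubiquitin ligase gene, was at 8.48, 8.31 and 8.47 in FAD and at 7.97, 7.99 and 7.90 in FAD DKO (-0.47, adjusted p = 0.173). Id2, an inhibitor of basic helix-loop-helix factors, was at 8.35, 8.24 and 8.31 in FAD and at 7.88, 7.51 and 7.71 in FAD DKO (-0.60, adjusted p = 0.198). For these 3 genes wild type lay above FAD DKO on every array. Mt2, a metallothionein that binds zinc, was at 7.13, 7.32 and 6.82 in FAD and at 6.31, 6.00 and 6.23 in FAD DKO, beside 6.46, 6.31 and 6.15 in wild type (-0.91, adjusted p = 0.190). Otud1, a deubiquitinase gene (-0.55), and Snx24, a sorting nexin gene (-0.49), were lower without overlap as well.

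No gene on the higher side passed over all genes tested, against 819 at an unadjusted p under 0.05 (limma). Among those named, the smallest p was that of Akap5, a scaffold for protein kinase A and calcineurin, at 6.15, 6.27 and 6.12 in FAD and at 6.79, 6.66 and 6.65 in FAD DKO (0.52, adjusted p = 0.212). Upk1b, a tetraspanin gene counted among microglial genes, was at 9.68, 9.53 and 9.43 in FAD and at 10.06, 10.05 and 9.98 in FAD DKO (0.48, adjusted p = 0.212). Pim2, a survival kinase gene, was at 6.04, 5.95 and 6.10 in FAD and at 6.48, 6.60 and 6.56 in FAD DKO (0.52, adjusted p = 0.229). For Akap5 and Upk1b the FAD DKO arrays also lay above every wild type array, while Pim2 overlapped with wild type.

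Mmp23, a membrane-bound metalloproteinase gene, was at 5.49, 5.52 and 5.91 in FAD and at 6.39, 6.42 and 6.06 in FAD DKO (0.65, limma, adjusted p = 0.246), and Mmp19, a secreted metalloproteinase gene, was at 0.39. Ptges, the inducible prostaglandin E synthase gene, was at 0.31, Maged1 at 0.27, the mitochondrial carrier Slc25a27 at 0.43, and Ahsa2, an activator of HSP90, at 0.44. Rnf144a, a ubiquitin ligase gene, was at 0.28 and Eva1b at 0.34. Each was higher without overlap, with adjusted p between 0.229 and 0.287. These 11 differences were smaller than those of the 5 genes that passed.

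**Figure D4:**
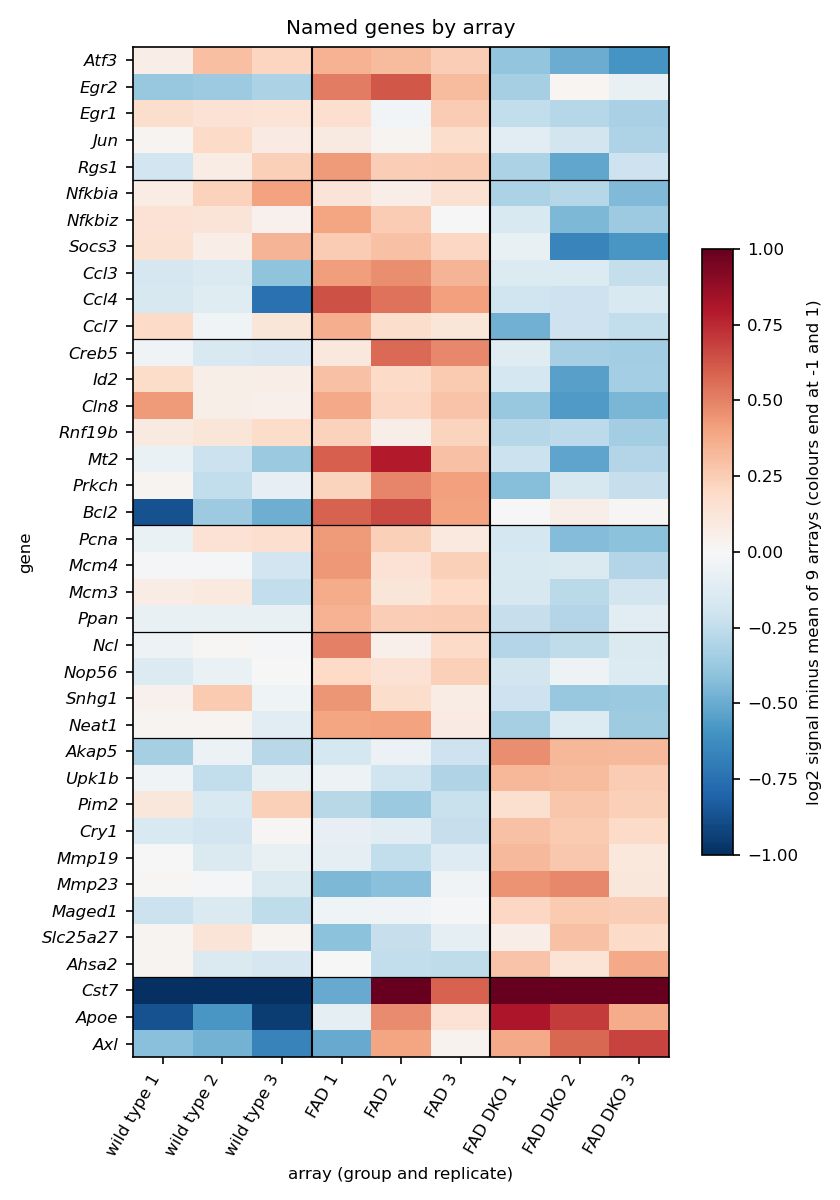
Log2 signal of 38 named genes on 9 arrays, each minus the gene's mean over the 9 arrays (colour, from -1 in blue to 1 in red); vertical lines part the groups and horizontal lines part gene groups. The upper 4 blocks and the block of Ncl to Neat1 hold genes that are lower in FAD DKO than in FAD, the block from Akap5 holds genes that are higher, and in the last block Cst7, Apoe and Axl vary among the FAD arrays.

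Several genes of DNA replication were lower without overlap, none of them past the threshold over all genes. Of 32 measured genes of the cell cycle, 22 were below 0, 7 were lower without overlap (21.9%, against 6.5% of all genes) and none was higher, and the median was -0.03. Pcna, the sliding clamp of DNA polymerases, stood at 10.18, 9.99 and 9.85 in FAD and at 9.57, 9.32 and 9.35 in FAD DKO (-0.59, limma, adjusted p = 0.218), with wild type at 9.69, 9.90 and 9.92. Mcm4, a subunit of the replication helicase, was at 6.86, 6.57 and 6.67 in FAD and at 6.27, 6.29 and 6.14 in FAD DKO (-0.47, adjusted p = 0.241). Mcm3 (-0.44) and Mcm6 (-0.85), of the same helicase, did not overlap either. Mki67 (0.17) and Top2a (-0.03), markers of cycling cells picked after their values were seen, overlapped between the groups. Of the 32 genes, 11 had a mean under the median signal of 5.35. Among all genes at or above it, 10.5% were lower and 5.52% higher without overlap.

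Inhibitors of cyclin-dependent kinases were on the other side, 6 of 8 above 0, with a median of 0.13. Cdkn2d (0.29) and Cdkn1b (0.23), which encode p19 and p27, were higher without overlap (25% of the list, against 5.38% of all genes). Cdkn2b (0.27), which encodes p15, overlapped. Among 18 apoptosis regulators 9 were below 0. Bcl2, the survival factor, stood at 7.55, 7.63 and 7.37 in FAD and at 6.97, 7.02 and 6.98 in FAD DKO (-0.53, limma, adjusted p = 0.309), above wild type at 6.09, 6.61 and 6.48. Birc3, an inhibitor of apoptosis, was at -0.25 without overlap. Targets of p53 split 11 to 11, led on the lower side by Plk2 (-0.73) and on the higher side by Tnfrsf10b and Phlda3 (0.29 each).

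Genes of the homeostatic state split evenly, 12 below and 12 above 0 among 24, with a median of 0.00. Without overlap 4 were lower (Cx3cr1 and Jun among them) and 4 higher, 16.7% each, against 6.5% and 5.38% of all genes. Among genes at or above the median signal, where all 24 lie, 10.5% were lower and 5.52% higher. P2ry12, the purine receptor of resting microglia, stood at 12.07, 12.03 and 11.998 in FAD and at 11.92, 11.92 and 11.90 in FAD DKO (-0.12, limma, adjusted p = 0.643). Tmem119 stood at 8.98, 9.20 and 9.48 in FAD and at 9.54, 9.45 and 9.55 in FAD DKO (0.29, adjusted p = 0.572). P2ry12 did not overlap between the groups and Tmem119 did. Crybb1, a crystallin gene expressed by microglia, was lower without overlap (-0.38, adjusted p = 0.434). The mean level over the list was 10.52 to 10.59 in FAD and 10.51 to 10.58 in FAD DKO.

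Plaque-associated genes were more often above 0, 25 of 35, with a median of 0.06, but 4 were lower, among them the chemokine genes Ccl3 and Ccl4, and 1, Cst7, was higher without overlap. Those shares were 11.4% and 2.86%, against 6.5% and 5.38% of all genes. Among genes at or above the median signal, where 32 of the 35 lie, they were 10.5% and 5.52%. Cst7, a cystatin that inhibits lysosomal proteases, stood at 8.65, 10.52 and 9.75 in FAD and at 10.65, 10.63 and 11.14 in FAD DKO (1.17, limma, adjusted p = 0.504), against 7.34, 6.89 and 6.83 in wild type. Apoe stood at 6.28, 6.85 and 6.52 in FAD and at 7.18, 7.07 and 6.74 in FAD DKO (0.45, adjusted p = 0.546). Axl, a receptor for dead cells, was at 7.54, 8.44 and 8.08 in FAD and at 8.42, 8.62 and 8.72 in FAD DKO (0.57, adjusted p = 0.509). The first FAD array was the lowest of the FAD arrays for each of the 3. Without it the median of the list was 0.01, and without the second FAD array it was 0.20. Clec7a (0.57), Itgax (0.59) and Gpnmb (0.79), picked after their values were seen, overlapped between the groups, and Trem2 (-0.04), picked likewise, did too.

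Receptors and enzymes of amyloid uptake and degradation were near 0 as a group, with 14 of 32 below 0 and a median of 0.01. Fcgr2b, the inhibitory Fc receptor, was at 8.67, 8.57 and 8.44 in FAD and at 8.78, 8.88 and 8.87 in FAD DKO (0.28, limma, adjusted p = 0.385). Lrp1, a receptor for apolipoprotein E and amyloid, was at 9.78, 9.80 and 9.96 in FAD and at 9.52, 9.62 and 9.63 in FAD DKO (-0.25, adjusted p = 0.407), and the complement receptor C3ar1 was at -0.27 without overlap. Of the genes that process the amyloid precursor, 7 of 13 were above 0, and App itself was at -0.19 without overlap (adjusted p = 0.603). Whether the App probe set also reads the human transgene was not determined.

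Genes of antigen presentation were above 0 in 13 of 17, with a median of 0.18, and none was without overlap. H2-Aa stood at 7.43, 7.37 and 7.31 in FAD and at 7.32, 8.22 and 7.72 in FAD DKO (0.39, limma, adjusted p = 0.643), and H2-DMb1 at 4.65, 6.01 and 5.33 in FAD and at 5.51, 6.13 and 5.95 in FAD DKO (0.53). Without the first FAD array the median of the list was 0.04. Interferon response genes had a median of 0.02, with 14 of 27 above 0. Without overlap 1 was lower and 3 were higher (3.7% and 11.1%, against 6.5% and 5.38% of all genes). Gbp7 (0.25) and Oas3 (0.24) were among the 3.

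Metabolic and lysosomal lists lay near all genes. The medians were -0.01 for 34 lysosomal genes, -0.03 for 19 genes of sterol synthesis and uptake, 0.00 for 21 genes of lipid efflux and storage, -0.04 for 18 of glycolysis and -0.02 for 34 of oxidative phosphorylation. Within them Ctsl, a lysosomal protease, was at -0.31 and Insig1, which holds back sterol synthesis, at -0.47 (limma, adjusted p = 0.377), both without overlap. Genes of the TGF-beta pathway, which maintains microglial identity, had a median of -0.01, with Smad3 (-0.20) and Tgif1 (-0.25) lower without overlap. Of 18 genes for microRNAs with known roles in microglia or inflammation 9 were below 0, and Mir23a (-0.54) and Mir132 (-0.36) were lower without overlap.

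The circadian clock genes split in direction. Of 17 measured, 3 were lower and 5 were higher without overlap (17.6% and 29.4%, against 6.5% and 5.38% of all genes), with a median of -0.01. Among genes at or above the median signal, where 16 of the 17 lie, 10.5% were lower and 5.52% higher. Cry1, a repressor of the clock, stood at 5.50, 5.46 and 5.35 in FAD and at 5.87, 5.84 and 5.77 in FAD DKO (0.39, limma, adjusted p = 0.229). Hlf, an output factor, was at 5.74, 5.67 and 5.86 in FAD and at 6.14, 6.12 and 5.94 in FAD DKO (0.31, adjusted p = 0.383). Nr1d1, the nuclear receptor REV-ERB alpha, was lower, at 6.06, 5.96 and 6.25 in FAD and at 5.81, 5.83 and 5.86 in FAD DKO (-0.26, adjusted p = 0.518), as was Nfil3 (-0.25). Per1 (-0.35) was lower, and Per3 (0.33) and Tef (0.27) were higher, without overlap; these 3 were picked after their values were seen. The time of day of sampling is not in the labels, and its part was not tested.

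**Figure D5:**
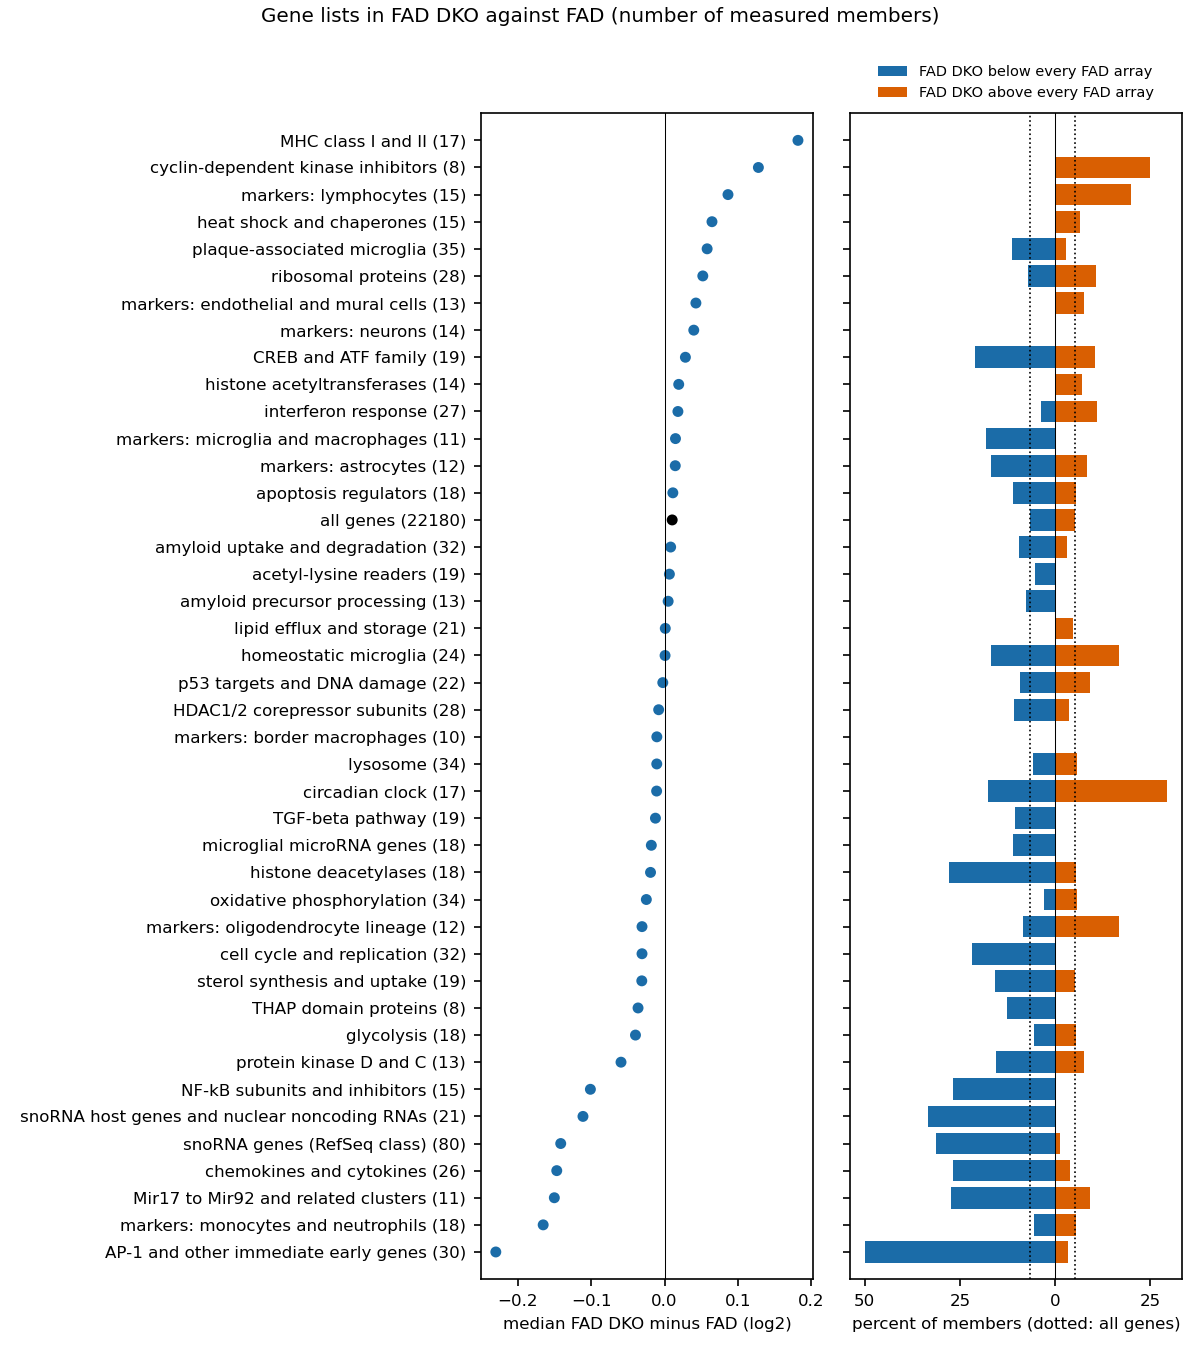
Left, median difference FAD DKO minus FAD (log2) of the measured members of each gene list, with all 22180 genes as the black point; right, percent of members for which all 3 FAD DKO arrays are below (blue) or above (orange) all 3 FAD arrays, with dotted lines at 6.5% and 5.38%, the values over all genes. Immediate early genes have the lowest median (-0.23) and the largest blue bar (50%), and the MHC list has the highest median (0.18) with no bar.

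Genes next to the edited loci were looked at for differences near the deletions and the insertion. Of the 10 measured genes on either side in RefSeq order, 8 of 20 beside Hdac1, 7 of 20 beside Hdac2 and 11 of 20 beside Cx3cr1 were below 0. Without overlap 2 were lower and 3 higher beside Hdac1 (10% and 15%). Beside Hdac2 1 was lower (5%), and beside Cx3cr1 1 was higher (5%). Over all genes 6.5% were lower and 5.38% higher. None of the neighbours passed.

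Markers of the cell types that a sort could hold were compared between the groups. The 11 measured microglia and macrophage markers had a mean level of 10.66 to 10.76 in FAD and 10.64 to 10.74 in FAD DKO. Lists of neurons, astrocytes, oligodendrocyte lineage, endothelial and mural cells, and lymphocytes had mean levels of at most 5.27 on every FAD and FAD DKO array, below the median of all probe sets, with list medians between -0.03 and 0.09. Below that median lay 10 of 14 neuronal, 9 of 12 astrocyte, 7 of 12 oligodendrocyte, 8 of 13 endothelial and mural, and 12 of 15 lymphocyte markers. Lower and higher without overlap were 2 and 1 astrocyte (16.7% and 8.33%) and 1 and 2 oligodendrocyte markers (8.33% and 16.7%). Of endothelial and mural markers only Flt1 (0.41) was higher (7.69%), and 3 lymphocyte markers were higher (20%). Neither list had a lower one, and all neuronal markers overlapped. Over all genes 6.5% were lower and 5.38% higher, and among dimmer genes 2.12% and 5.22%. Border macrophage markers were at 5.76 to 5.89 in FAD and 5.64 to 5.86 in FAD DKO. Markers of monocytes and neutrophils varied most, at 6.81 to 6.87 in FAD and 5.98 to 7.27 in FAD DKO, with 14 of 18 below 0 and a median of -0.17. The median was -0.53 without the second FAD DKO array and 0.18 without the first, so that leaving out 1 array turned its sign. S100a9, a granulocyte protein gene picked after its value was seen, stood at 10.05, 9.997 and 9.998 in FAD and at 8.17, 10.64 and 9.90 in FAD DKO. The part of such cells in the results above was not tested.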

How the data were processed

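RNA of FACS-sorted microglia was amplified and hybridised to 9 one-colour expression arrays, 3 per group. The authors deposited log2 values that came from RMA according to the submitters' processing notes (per the labels, with no version); RMA as a method corrects background, quantile-normalizes and summarises per probe set. The deposited values were used as they stand, so differences shared by most genes would be removed. Of 41345 probe sets, 23521 have 1 gene symbol in the platform annotation, 1814 have several and 16010 are not listed. The brightest probe set of each symbol gave 22180 genes, and 23328 of the 23521 probe sets matched RefSeq genes (GRCm38.p6).

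Group means over 9 arrays were fitted with limma 3.58.1 (lmFit and eBayes, R 4.3.3), with Benjamini-Hochberg adjustment over 22180 genes and a threshold of 0.05; the script was tested on simulated data. Values after ± are standard errors. Groups do not overlap where all 3 arrays of one lie beyond all 3 of the other. Named were the targeted genes, the called genes, the 12 genes with the smallest p in each direction among brighter non-overlapping genes (no microRNA or snoRNA genes), up to 4 per list, the Mir17 clusters and 5 snoRNA genes. The members and the 41 lists were chosen with earlier results of these data known. Alternatives were a filter on dim genes, quantile normalization, a trended and robust variance model, the 6 arrays alone, array weights, probe sets averaged per gene, a fit over all probe sets, a replicate block, each array left out and an unadjusted threshold. Figures were drawn with matplotlib 3.10.9.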

Additional observations from a re-analysis of the deposited data

Results flagged for a closer look

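Signal outside the genes compared was seen in 4 probe sets that the platform annotation does not list, so that no gene can be named for them. In a fit over all 41345 probe sets they were higher in FAD DKO than in FAD (limma, adjusted p = 0.027 for each). Probe set 17551165 stood between 5.51 and 5.57 in FAD and between 7.84 and 8.00 in FAD DKO, a difference of 2.3768 on the log2 scale. Probe set 17550687 stood between 4.82 and 4.94 in FAD and between 6.60 and 7.01 in FAD DKO, a difference of 1.8835. The other two differed by 2.1128 and 1.5911. For none of the 4 did the groups overlap, and what these probe sets measure was not determined.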

How the results depend on the processing

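All 5 calls were kept with array weights and with probe sets averaged per gene. The count of genes called was 11 with dim genes left out (4 of them among the 5), 12 with the trended and robust variance model (all 5 among them), 3 with quantile normalization, and 0 with the 6 arrays of FAD and FAD DKO alone (limma, 1584 at an unadjusted p under 0.05). Over every probe set 7 were called. These were the probe sets of Prkd1, Mir18 and Snora75, all lower, and the 4 unlisted probe sets above, all higher in FAD DKO. Atf3 and Thap6 were not called in that fit. At an unadjusted p under 0.05 there were 1797 genes in the main fit. Leaving out each array in turn gave 0 to 5 calls. Prkd1 was kept in 6 of the 9 leave-outs, Mir18 and Snora75 in 5 each, and Atf3 and Thap6 in 1 each. With the replicate number as a block 2 genes were called, Prkd1 and Snora75. Mir18 (limma, adjusted p = 0.0925), Atf3 and Thap6 (0.147 each) were not. Over all genes, same-numbered FAD and FAD DKO arrays did not deviate together (correlations of 0.0246, 0.00711 and 0.0115). The correlations were -0.11, 0.0337 and -0.0928 for wild type with FAD, and 0.122, 0.099 and -0.0476 for wild type with FAD DKO. Such correlations cannot decide whether the numbers pair the arrays.

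Reversed directions were seen for 9 named genes, all with differences that did not pass. Quantile normalization turned Prkd3 to 0.0086, and array weights turned Snord69 to 0.0474. With each array left out in turn, the difference ranged from -0.0847 to 0.2979 for Il1b, from -0.0593 to 0.2962 for Mir19b-2, from -0.0283 to 0.1494 for Prkd2, from -0.0460 to 0.0036 for Prkd3, from -0.9775 to 0.2531 for S100a9, from -0.1264 to 0.0559 for Top2a, from -0.1073 to 0.0154 for Trem2, from -0.2456 to 0.1613 for Snord69 and from -0.1130 to 0.0295 for Zfp36. The medians of the immediate early, NF-kB, chemokine and snoRNA lists stayed below 0 in the 16 alternatives run. Some of these alternatives leave every difference as it is in the main fit and so cannot test these medians. They are the trended and robust variance model, the FAD and FAD DKO arrays alone, the replicate block and the fits without a wild type array. Only the remaining alternatives could have moved the medians.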
